A study of Mus musculus with 7 samples.

Results

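The genes described here make fatty acids from citrate, lengthen them and put double bonds into them. Acly, Acaca, Fasn and Me1 supply and carry out the synthesis, Elovl5 and Elovl6 lengthen the chain, Scd1, Scd2 and Fads1 desaturate it, and Srebf1 encodes the transcription factor SREBP-1 that drives most of these genes. They were taken as the 10 named genes of the pathway, by every probe set whose platform annotation names only that gene, which gave 24 of the 34945 probe sets of 1 gene and 10 of 18193 genes on the array. All 10 lay above the filter on weak signal and were among the 13644 genes tested.

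Total RNA from the terminal ileum, the end of the small bowel, was hybridised to Affymetrix mouse arrays, 1 array for each of 7 male C57BL6J mice aged 8 weeks. The penicillin group was 4 mice given low-dose penicillin at 6.7 mg/L from birth, and the control group was 3 mice given no antibiotic. Mice of both groups were weaned at 4 weeks and switched at 6 weeks to diet D12451, with 45% of its calories from fat. The labels call the samples biological replicates, and errors here are therefore spreads between mice; litter and cage are not among the details used here.

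Cytosolic citrate is split by ATP citrate lyase into acetyl-CoA, which acetyl-CoA carboxylase turns into malonyl-CoA, and fatty acid synthase builds palmitate from these with NADPH that malic enzyme helps to supply. Palmitate is then elongated to stearate by ELOVL6 and given its first double bond by stearoyl-CoA desaturase, while ELOVL5 and FADS1 act on polyunsaturated chains. The pathway is most active in liver and adipose tissue and is also used by the intestinal epithelium, and a diet rich in fat is known to restrain it.

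In the penicillin mice Elovl6 was lower than in every control mouse, on each of its 3 probe sets. Of all genes 6.05% were lower in every penicillin mouse than in every control mouse, and 4.29% were higher. The Elovl6 difference was the one among the 10 genes with an unadjusted p under 0.05, a level that 10.7% of all genes reached. It did not pass the test over all genes. The other 9 genes had overlapping values in the penicillin and control groups. Fasn, Scd1, Me1 and Acaca varied far more between mice of the same group than between the groups. Across the mice Fasn was correlated with Me1 and with Acaca. Srebf1 differed little between mice and followed the level of adipocyte marker genes in the same samples.

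The arrays were compared with limma, a linear model that borrows information on spread from all genes, with p-values adjusted over all 13644 genes by the Benjamini-Hochberg method. Of the 10 genes 0 passed at an adjusted p under 0.05, where 0.0953% of all genes passed. At an unadjusted p under 0.05 there was 1 of the 10, where 10.7% of all genes reached that level. The median difference, penicillin minus control on the log2 scale, was 0.047 over the 10 genes and -0.014 over all genes tested, with 6 of the 10 higher and 4 lower. Levels are log2 expression values, so a difference of 1 is a change of 2-fold, and errors of differences are standard errors (SE) of the fit.

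One array, control replicate 3, lay far from the rest: it scored 29.98 on principal component 1 (48.0% of the variance), against scores of -17.61 to 2.90 for the other mice. The bile acid carrier Fabp6, a marker of ileal enterocytes, was at 14.50 ± 0.115 in penicillin mice and 14.41 ± 0.109 in control mice (SD, n = 4 and n = 3). Of the 5 ileal enterocyte markers listed, 4 had a higher mean in penicillin mice and 1 a lower one. Their differences ranged from -1.14 to 0.82, and 0 passed in limma. The control means include replicate 3, where the mean of the 5 markers was 11.15, against 11.99 and 12.11 in the other control mice. In penicillin mice the mean of the 5 was 11.61 to 12.10. The labels' growth protocol mentions livers, and the mean of 5 hepatocyte markers was 4.60 to 5.39 in penicillin mice and 4.65 to 5.27 in control mice, with Alb, the serum albumin gene, at 5.45 to 7.95 and 5.15 to 7.40. In these bulk samples fewer cells of a type and less RNA per cell cannot be told apart.

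Promoter sequences from RefSeq (GRCm38.p6, 250 bases before to 50 after the start) were found for 7 of the 10 genes. Of these, 3 are shown: Elovl6, whose values separated the groups, and Fasn and Me1, the pair with the highest correlation across mice. Capitals mark matches on either strand to ATTGG (the inverted CCAAT box), GGGCGG (the GC box), CACGTG (an E-box) or TCACNCCAC (the core of a sterol regulatory element, the site SREBP proteins bind).
Elovl6, chr3:129532136-129532435, plus strand: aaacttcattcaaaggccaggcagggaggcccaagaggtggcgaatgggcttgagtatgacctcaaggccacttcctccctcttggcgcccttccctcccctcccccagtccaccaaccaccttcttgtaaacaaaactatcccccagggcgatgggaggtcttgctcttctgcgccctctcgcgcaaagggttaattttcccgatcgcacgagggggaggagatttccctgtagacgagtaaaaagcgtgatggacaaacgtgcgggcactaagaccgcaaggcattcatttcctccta
Fasn, chr11:120824498-120824797, minus strand: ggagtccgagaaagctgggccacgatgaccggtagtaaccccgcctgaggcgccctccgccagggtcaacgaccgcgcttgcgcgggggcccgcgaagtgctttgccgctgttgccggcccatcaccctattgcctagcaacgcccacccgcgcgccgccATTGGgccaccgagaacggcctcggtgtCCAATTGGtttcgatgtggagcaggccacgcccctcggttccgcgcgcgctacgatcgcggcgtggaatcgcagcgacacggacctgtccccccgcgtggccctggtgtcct
Me1, chr9:86695865-86696164, minus strand: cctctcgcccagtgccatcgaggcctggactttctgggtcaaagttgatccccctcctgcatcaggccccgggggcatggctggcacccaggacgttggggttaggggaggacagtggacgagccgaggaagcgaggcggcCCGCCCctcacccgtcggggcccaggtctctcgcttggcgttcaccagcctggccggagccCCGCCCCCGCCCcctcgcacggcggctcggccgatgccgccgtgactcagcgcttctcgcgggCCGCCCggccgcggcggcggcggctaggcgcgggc

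The Fasn window held 3 matches to ATTGG, of which 2 overlap in a palindrome, and 37.4% of the 32851 promoter windows in the table held at least 1. The Me1 window shown, 1 of 2 in the table and the one at the 5′ end of the gene, held 4 matches to GGGCGG, which 35.7% of windows held. The other Me1 window held none of these and 1 match to ATTGG. The Elovl6 window had no match to any of the 4 motifs, and neither had that of Acaca, which was also correlated with Fasn and is not shown. CACGTG and TCACNCCAC, found in 7.15% and 1.24% of windows, were matched in none of the 3 windows shown. A match of letters is a description and not a binding site.

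Elovl6 encodes the enzyme that extends palmitate by a pair of carbons. Its brightest probe set read 9.63, 9.60, 9.62 and 9.78 in the penicillin mice, against 10.06, 9.98 and 9.85 in the control mice. All penicillin values lay below all control values, which was so for 6.05% of all genes. In a further 4.29% of genes all penicillin values lay above all control values. The difference was -0.31 ± 0.074 (SE), a ratio of 0.807 with a 95% interval of 0.717 to 0.909, and the adjusted p in limma was 0.259. The second probe set read 8.84, 8.76, 8.77 and 8.94 in penicillin mice, against 9.25, 9.11 and 8.95 in control mice. There the highest penicillin mouse and the lowest control mouse were almost level. The third, at a much lower signal, read 5.19, 4.73, 5.11 and 5.19 in penicillin mice, against 5.47, 5.26 and 5.40 in control mice, again with no overlap. The differences of these probe sets were -0.27 and -0.32, close to that of the brightest, and since all measure the same RNA they are not independent replicates. With every probe set tested as its own feature, 3.96% of the 34945 probe sets had all penicillin values below all control values.

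The Elovl6 difference lay between -0.40 and -0.26 in the 17 alternative fits, with an adjusted p in limma from 0.0178 to 0.790. All penicillin values lay below all control values, so fits that left out or reweighted mice could not change the sign of the difference. The difference passed in limma in 1 of the 17, the fit with array quality weights, at -0.40 (adjusted p = 0.0178). That fit called 774 genes in all. Without control replicate 3 the Elovl6 difference was -0.37 and without control replicate 1 it was -0.26, with adjusted p of 0.156 and 0.453.

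**Figure D1:**
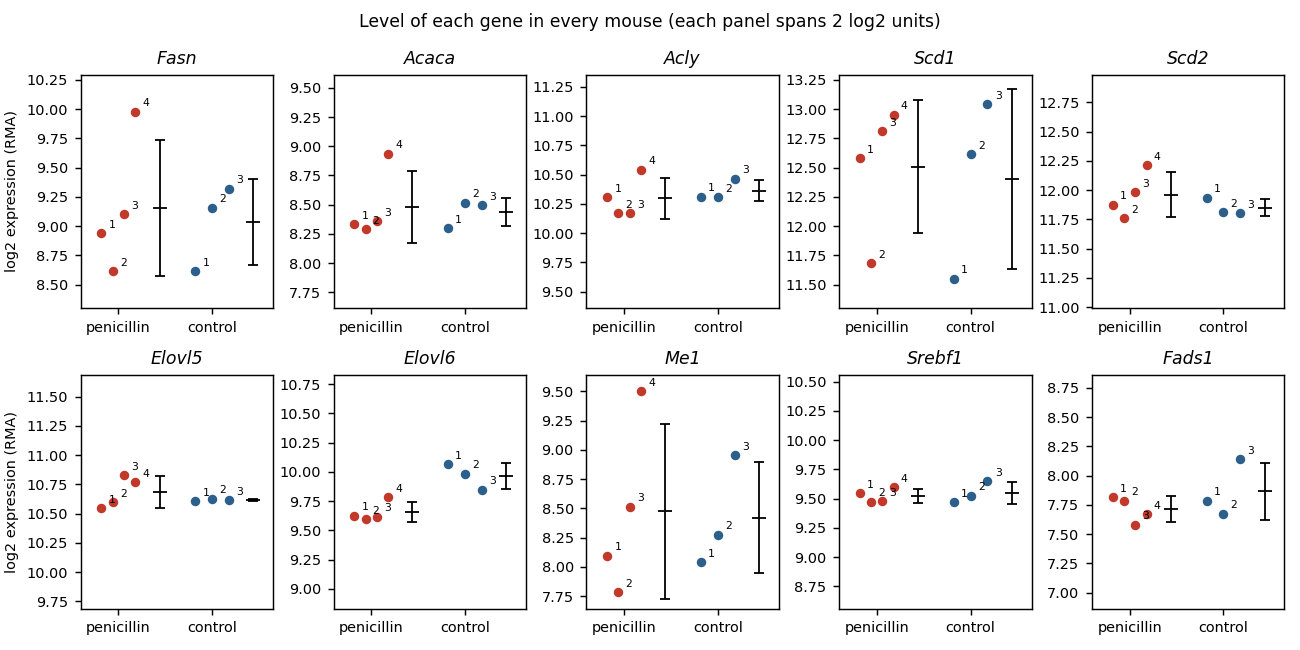
Level of the 10 genes in each mouse, as log2 expression of the brightest probe set on the vertical axis, with penicillin mice on the left and control mice on the right of each panel; numbers are replicate numbers, the black bar is the mean and the whiskers are ± 1 SD. Elovl6 separates the groups, with penicillin mice at 9.60 to 9.78 and control mice at 9.85 to 10.06, while Fasn, Scd1 and Me1 spread widely within both groups.

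Acly, which makes cytosolic acetyl-CoA from citrate, read 10.31, 10.17, 10.17 and 10.54 in penicillin mice, against 10.31, 10.31 and 10.47 in control mice. The groups overlapped, and the difference of -0.064 ± 0.10 (SE) had a 95% interval of -0.30 to 0.17. Of its 6 probe sets 5 had a lower mean in penicillin mice and 1 a higher one, with differences from -0.079 to 0.042. The brightest is of a kind whose probes can match other transcripts, and the next brightest, at 10.32, 10.15, 10.04 and 10.40 against 10.29, 10.33 and 10.29, differed by -0.079.

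Acaca, the cytosolic acetyl-CoA carboxylase that commits carbon to fatty acids, read 8.33, 8.29, 8.36 and 8.94 in penicillin mice, against 8.30, 8.52 and 8.50 in control mice. Penicillin replicate 4 was above all other mice, and the other 3 penicillin mice lay below 2 of the 3 control mice. The difference was 0.042 ± 0.16 (SE), and it was -0.11 without penicillin replicate 4. Its second probe set, at about 3.6 in every mouse, lay at the bottom of the scale.

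Fasn, the synthase itself, read 8.94, 8.62, 9.10 and 9.98 in penicillin mice, against 8.62, 9.16 and 9.32 in control mice. The highest and the lowest mouse both belonged to the penicillin group, 2.57-fold apart. The difference of 0.13 ± 0.32 (SE) had a 95% interval on the ratio of 0.655 to 1.82. Me1, the malic enzyme that yields NADPH, read 8.10, 7.78, 8.52 and 9.50 in penicillin mice, against 8.04, 8.27 and 8.95 in control mice, so that penicillin mice spanned 3.29-fold and control mice 1.89-fold. Its difference was 0.052 ± 0.41 (SE), with an interval on the ratio of 0.539 to 1.99. Its second probe set put the 7 mice in almost the same order, at 7.68, 7.26, 8.10 and 9.12 in penicillin mice and 7.27, 7.65 and 8.43 in control mice. With 7 arrays the intervals on the ratio allow changes in either direction for both genes.

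Scd1, the main stearoyl-CoA desaturase of liver and fat, read 12.58, 11.68, 12.81 and 12.95 in penicillin mice, against 11.55, 12.62 and 13.04 in control mice. Each group held 1 low mouse, penicillin replicate 2 and control replicate 1, and the others lay close together. The difference was 0.11 ± 0.41 (SE), with an interval on the ratio of 0.557 to 2.08, and it was -0.32 without control replicate 1 and 0.43 without control replicate 3. The second probe set, at 7.02, 5.91, 7.11 and 7.84 against 5.78, 6.66 and 7.26, had the same 2 low mice. Scd2, a second desaturase found in many tissues, read 11.87, 11.76, 11.98 and 12.21 in penicillin mice, against 11.93, 11.81 and 11.80 in control mice, a difference of 0.11 ± 0.11 (SE). Penicillin replicate 2, 1 of the low mice for Scd1, was the lowest for Scd2, close to control replicates 2 and 3. Control replicate 1, the other low mouse for Scd1, was not low for Scd2. Of the 3 Scd2 probe sets 1, the dimmest, went the other way at -0.22.

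Elovl5, the elongase of polyunsaturated chains, read 10.55, 10.60, 10.83 and 10.77 in penicillin mice, against 10.61, 10.63 and 10.62 in control mice. The control mice lay within 0.019 of each other, inside the range of the penicillin mice, and the difference of 0.069 ± 0.077 (SE) had an interval on the ratio of 0.926 to 1.19. The second probe set read 10.43, 10.50, 10.77 and 10.60 in penicillin mice, against 10.64, 10.63 and 10.50 in control mice. There the control mice were less close together, and the difference was -0.014. Fads1, the delta-5 desaturase, read 7.82, 7.79, 7.58 and 7.67 in penicillin mice, against 7.79, 7.68 and 8.14 in control mice. Its difference of -0.15 ± 0.12 (SE) rested on control replicate 3, without which it was -0.017. Its second probe set, at a lower signal, went the other way by 0.15.

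Srebf1, the transcription factor of the pathway, read 9.55, 9.47, 9.48 and 9.60 in penicillin mice, against 9.47, 9.52 and 9.65 in control mice. The groups overlapped fully, and the difference of -0.023 ± 0.063 (SE) had an interval on the ratio of 0.888 to 1.09. On the log2 scale that interval is the narrowest of the 10 genes. The annotation names the gene and not its SREBP-1a or SREBP-1c transcript, and RNA does not report the cleavage that activates the protein.

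**Figure D2:**
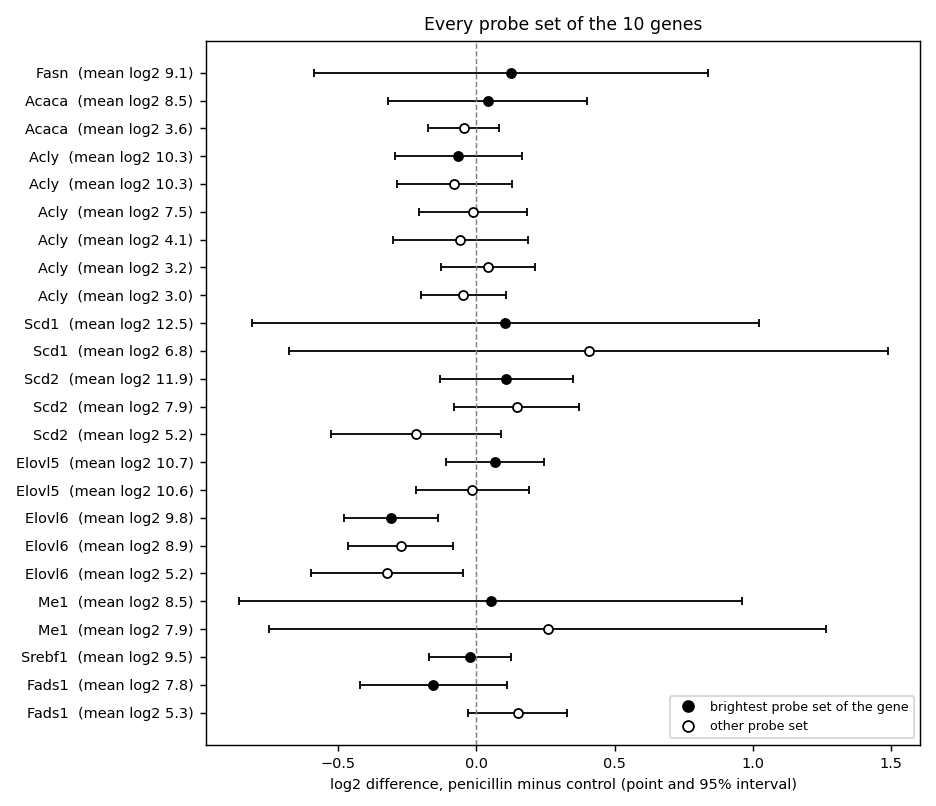
Difference of every probe set of the 10 genes, penicillin minus control in log2 units on the horizontal axis, with its 95% interval; filled points are the brightest probe set of a gene, and the mean level over 7 mice stands beside each name. All 3 Elovl6 intervals lie below 0, and the intervals of Scd1 and Me1 are the widest.

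The 10 genes differed widely in their spread between mice. The within-group SD, pooled over both groups, was 0.66 for Scd1, 0.65 for Me1 and 0.51 for Fasn, at percentiles 99.6, 99.6 and 98.9 of all genes tested, and 0.25 for Acaca at percentile 91.7. These 4 lay in the most variable 10% of genes. Srebf1, at 0.075, Elovl6, at 0.097, and Elovl5, at 0.10, lay at percentiles 27.4, 42.9 and 47.9, below the median of all genes of 0.11. Acly, Scd2 and Fads1 lay between, at percentiles 70.5, 74.0 and 80.2. Penicillin replicate 4 was the highest of all mice for 5 of the 10 genes and penicillin replicate 2 the lowest for 5. Control replicate 3 was the highest for 3 genes, and control replicate 1 was the lowest for 2 and the highest for 1. For Scd1 and Srebf1 both ends of the range were control mice.

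**Figure D3:**
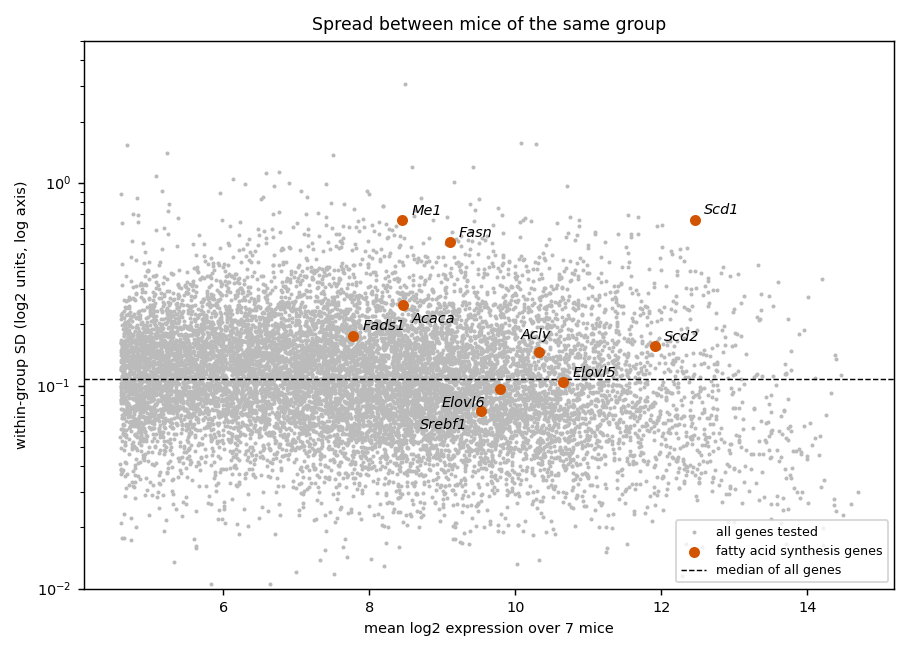
Within-group SD of each of the 13644 genes tested, in log2 units on a log axis, against its mean log2 expression over 7 mice; grey points are all genes, orange points the fatty acid synthesis genes, and the dashed line the median of 0.11. Scd1, Me1 and Fasn lie near the upper edge of the cloud and Srebf1, Elovl6 and Elovl5 below the median; 20 genes under 0.01 fall off the axis.

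Across the 7 mice 45 pairs of these genes were correlated, each tested with a two-sided exact permutation test and adjusted over the 45. Of these, 2 passed for Pearson's r: Fasn with Me1 (r = 0.956, adjusted exact p = 0.0134) and Fasn with Acaca (r = 0.951, adjusted exact p = 0.0134). Spearman's rho was 0.964 for both (adjusted exact p = 0.0625 by permutation). Without penicillin replicates 2 and 4, the mice farthest from the median of Fasn, r was 0.826 with Me1 and 0.831 with Acaca. With each mouse taken as its deviation from its group mean, r was 0.960 and 0.951. Fasn and Scd1 had r = 0.807 and rho = 0.893 (unadjusted exact permutation p = 0.0194 and 0.0123, adjusted p = 0.156 and 0.111), and r was 0.949 without the same 2 mice. The other pairs among Fasn, Scd1, Me1 and Acaca did not pass after adjustment. The 2 values of each pair come from the same array, so they share whatever differed in that sample. Elovl6 had r = 0.0104 against Fasn and 0.0753 against Me1 (unadjusted exact permutation p = 0.982 and 0.874), and 0.296 and 0.248 with deviations from the group means. With such deviations its r against the other genes ranged from -0.615 (Fads1) to 0.784 (Scd2), and these were not tested.

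The wall of the ileum is joined to mesenteric fat, and adipocytes are rich in these same enzymes. The mean of 6 measured adipocyte markers of 8 listed was 10.44, 9.79, 10.16 and 10.71 in penicillin mice, against 9.98, 10.29 and 11.27 in control mice. Control replicate 3 was highest and penicillin replicate 2 lowest. Adipoq, the fat-cell hormone adiponectin, was at 11.77, 11.07, 11.34 and 11.78 in penicillin mice, against 11.42, 11.54 and 12.81 in control mice. Lep, encoding leptin, ranged from 4.28 to 5.75 in penicillin mice and from 3.90 to 6.34 in control mice, and Cidec, a lipid droplet protein, from 8.25 to 9.12 and from 8.53 to 9.51. All 6 markers lay in the most variable 10% of genes, and 0 of 6 passed the test between groups (lowest adjusted p in limma = 0.630).

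Of the 10 genes Srebf1 had the highest correlation with the adipocyte marker mean, with r = 0.971 and rho = 0.964 (adjusted exact permutation p = 0.00595 and 0.0278 over 10 genes). Without penicillin replicate 2 and control replicate 3, the mice farthest from the median of the marker mean, r was 0.982, and with deviations from the group means it was 0.972. Scd1, Acly, Me1 and Fasn had r of 0.793, 0.795, 0.753 and 0.681, none of which passed after adjustment over the 10 genes (adjusted exact permutation p = 0.114, 0.114, 0.129 and 0.183). Their rho was 0.821, 0.667, 0.821 and 0.857 (adjusted exact permutation p = 0.0853, 0.194, 0.0853 and 0.0853), and without the same 2 mice r was 0.743, 0.755, 0.758 and 0.870. Elovl6 had r = 0.113 and rho = 0.250, and Elovl5 r = 0.0444 and rho = 0.214 (adjusted exact permutation p of r = 0.903 and 0.921, and of rho = 0.713 for both). Penicillin replicate 4 was highest for Fasn, while control replicate 3 was highest for the markers. How much adipocyte RNA contributed to the level of any of these genes was not tested.

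**Figure D4:**
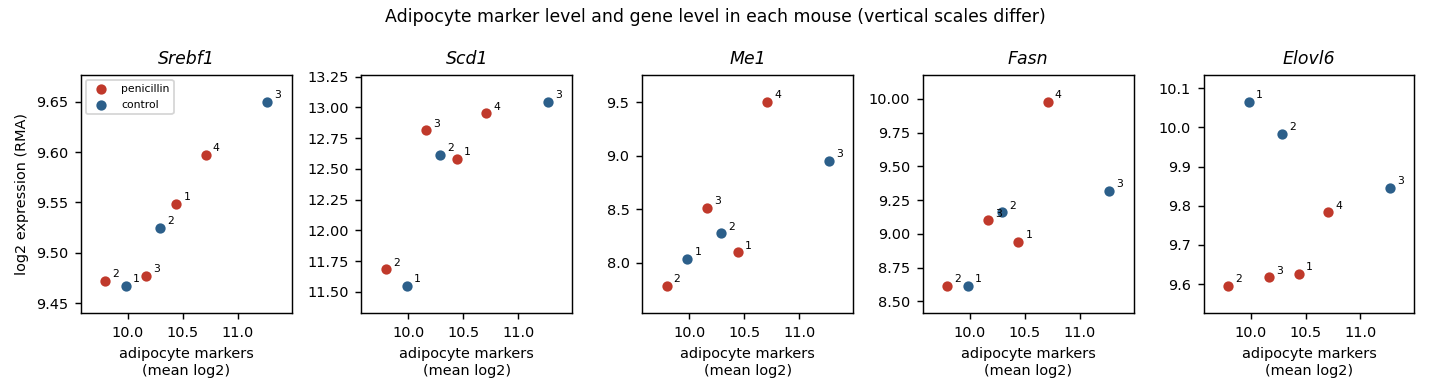
Level of 5 genes (vertical axes, log2 expression, with a scale for each panel) against the mean log2 level of 6 adipocyte markers (horizontal axes) in each mouse; red points are penicillin mice, blue points control mice, numbered by replicate. Srebf1 lies close to a line with the markers (r = 0.971) over a span of 0.18, Scd1, Me1 and Fasn scatter more (r = 0.793, 0.753 and 0.681), and Elovl6 lies apart by group.

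With the adipocyte marker mean as a covariate, a fit added after the data had been seen, 0 of the 10 genes passed in limma while 42 of all genes did. In that fit Elovl6 differed by -0.32 (adjusted p = 0.242), Scd1 by 0.36 and Srebf1 by 0.0098. The other lists of cell type markers are given as mean levels, with single genes for the colon list. The enterocyte list of the small intestine was at 10.01 to 11.03 in penicillin mice and 9.10 to 10.11 in control mice, lowest in control replicate 3. Colon epithelium markers were at 5.83 to 7.05 and 6.22 to 8.74, highest in control replicate 3. Of these Car1 was at 14.10 in that mouse, against 7.38 and 7.30 in the other control mice. Aqp8 was at 8.27 against 3.86 and 4.29, and Slc37a2 at 6.42 against 4.80 and 4.90. In penicillin mice Car1 ranged from 5.11 to 10.82, the highest in replicate 1. Mettl7b and Fxyd4 were not highest in control replicate 3. Markers of proliferating crypt cells were at 10.25 to 10.45 and 10.40 to 10.79. The ileal enterocyte list was at 11.61 to 12.10 in penicillin mice and 11.15 to 12.11 in control mice, macrophage markers at 8.54 to 8.89 and 8.79 to 9.18, smooth muscle markers at 10.84 to 11.37 and 11.12 to 11.47, and nerve and glia markers at 5.66 to 5.84 and 5.77 to 5.87. T and B lymphocyte markers did not overlap, at 5.39 to 5.86 in penicillin mice and 6.13 to 6.34 in control mice, and whether this bears on Elovl6 was not tested. Fads1 ran against the enterocyte list (r = -0.930 and rho = -0.937, adjusted exact permutation p = 0.0278 and 0.0476 over 10 genes), but r was -0.418 without penicillin replicate 3 and control replicate 3, so the relation rested on those mice.

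The rest of the pathway was taken as 40 further genes, of which 37 were on the array and 33 were tested. In limma 0 of the 33 passed in either direction, 3 had an unadjusted p under 0.05, where 10.7% of all genes did, and the median difference was -4.0e-04. Nr1h3, encoding LXR alpha, a sterol-activated receptor that induces Srebf1, read 7.51, 7.65, 7.77 and 7.63 in penicillin mice, against 7.48, 7.30 and 7.26 in control mice. All penicillin mice were above all control mice, as in 4.29% of all genes, and the difference was 0.29 ± 0.080 (SE, adjusted p = 0.308 in limma). Of the 33 genes 2 were higher in all penicillin mice, Nr1h3 among them, and 2 were lower in all, as in 6.05% of all genes. Idh1, a cytosolic source of NADPH, differed by 0.16 ± 0.067 (SE) and Mecr, the reductase of mitochondrial fatty acid synthesis, by -0.18 ± 0.079 (SE), with adjusted p of 0.451 and 0.463 in limma. Acacb, the carboxylase that curbs fat oxidation, had -0.34 ± 0.15 (SE), and Oxsm, of the mitochondrial pathway, 0.15 ± 0.072 (SE).

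Among the regulators Srebf2, Insig1 and Mlxipl differed by 0.094 ± 0.13, 0.075 ± 0.11 and 0.093 ± 0.066 (SE). Srebf2 encodes the sterol-sensing relative of SREBP-1, Insig1 retains SREBP precursors in the endoplasmic reticulum, and Mlxipl encodes ChREBP, the carbohydrate-responsive activator. Fads2, the delta-6 desaturase that acts before Fads1, was at 9.68 ± 0.097 in penicillin mice and 9.68 ± 0.052 in control mice (SD, n = 4 and n = 3). The enzymes that work with ELOVL6 in each round of elongation, Hsd17b12, Tecr and Hacd1 to Hacd4, were among the 8 tested genes of the elongation cycle, of which 4 were higher and 4 lower and 0 passed. The differences of the 8 genes lay between -0.19 and 0.17.

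**Figure D5:**
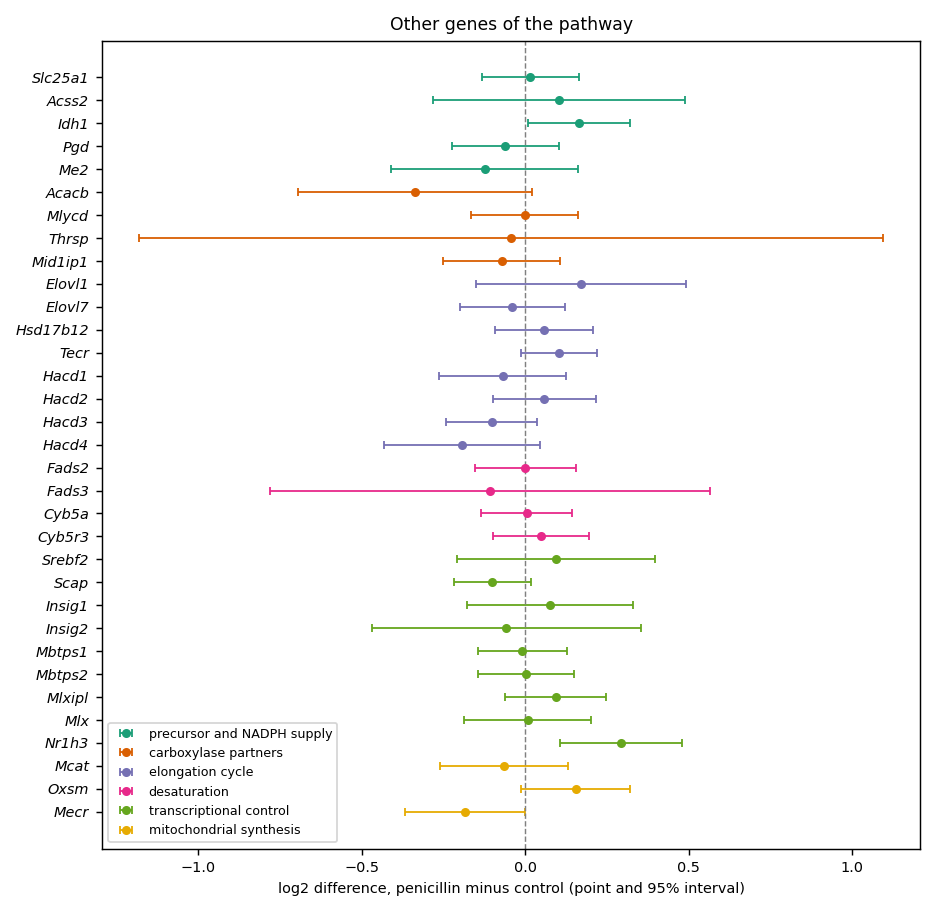
Difference of the 33 other tested genes of the pathway, penicillin minus control in log2 units on the horizontal axis, with 95% intervals, coloured by step of the pathway. Nr1h3 at 0.29 and Idh1 at 0.16 have intervals above 0, Mecr at -0.18 has one just below 0, and Thrsp has the widest.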

How the data were processed

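Each deposited value is the log2 expression of a probe set, which the authors made with RMA in affy, per the submitters' processing notes. RMA corrects background, equalises the arrays' distributions, which can compress a difference shared by many genes, and summarises the probes of a set. Software versions and the build are not stated in the sources used here, and RMA gives no detection call.

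Probe sets were named from the platform annotation, with symbols updated through a RefSeq gene table (34741 of 34945 matched). Each gene was represented by its brightest probe set (highest mean of 7 arrays), and genes at or under the 25th percentile of these means (log2 4.59) were left out. The groups were compared in limma 3.58.1 (R 4.3.3, lmFit and eBayes, two-sided). Calls were made at an adjusted p under 0.05 (Benjamini-Hochberg). The fit was tested on simulated data. The number of arrays limits the precision. Correlations over 7 mice used exact permutation tests in Python 3.11.15, and figures matplotlib 3.10.9.

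The text names the 10 genes with all their probe sets, the 5 other pathway genes with the lowest unadjusted p since none passed, and Acacb, Fads2, Insig1, Mlxipl and Srebf2. Of the markers it was to name the first 3 measured of each list, with Fabp6 and Alb. Genes are printed for the adipocyte and colon epithelium lists alone and the other lists as means. Thrsp, Fads3, Insig2 and Acss2 were chosen after their values were seen, as were the correlations. The genes and lists were chosen with earlier results of these data known. Alternatives were another normalisation, filter, choice of probe sets or estimate of spread, a replicate block, each array left out in turn, and an adipocyte covariate added later.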

Additional observations from a re-analysis of the deposited data

Results flagged for a closer look

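Among the 10 genes, 2 had a penicillin mouse set far from the other 3 of its group, by Dixon's gap test at the 95% level, and in both it was penicillin replicate 4. Acaca was at 8.94 in that mouse, against 8.29 to 8.36 in the other penicillin mice, and its difference between the groups was -0.11 without it. Elovl6 was at 9.78, against 9.60 to 9.63 in the other penicillin mice, and its difference was -0.35 without it. The 2 flagged values come from the same array and are not independent. Chance alone flags about 5% of groups, and the share flagged over all genes was not computed. Of the 33 other pathway genes 1 was flagged, in penicillin replicate 3. The control group of 3 mice is too small for this test.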

How the results depend on the processing

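In limma the count of genes called over the whole array was 13, and 7 with the mean of probe sets, 774 with array quality weights, 0 with the replicate number as a block, 42 with the adipocyte marker mean as a covariate, and 0 to 15 when single mice were left out. It was 0 without control replicate 1 or 2 or penicillin replicate 1 or 4, 2 without penicillin replicate 3 and 8 without control replicate 3. Of the 10 genes 0 passed except with array quality weights, where 1 did, Elovl6. Of the other pathway genes 0 passed in any of the 17 alternatives. The median over the 10 genes lay between -0.13 and 0.10. The differences of Fasn, Acaca, Scd1, Me1 and Srebf1 changed sign in some of these fits. With the replicate block, Fasn was at -0.15, Acaca at -0.11, Scd1 at -0.043 and Me1 at -0.29. These are the same values as without penicillin replicate 4. No control mouse has that number, so the block takes that mouse out of the comparison and is not a separate check. Acaca was at -0.0016 with the mean of probe sets, and Srebf1 at 0.036 with array quality weights and 0.0098 with the adipocyte covariate. With single mice left out Fasn ranged from -0.15 to 0.31, Acaca from -0.11 to 0.10, Scd1 from -0.32 to 0.43, Me1 from -0.29 to 0.32 and Srebf1 from -0.064 to 0.028. Why single mice differed this much was not tested. Same-numbered mice of the 2 groups did not deviate together (r = -0.164, 0.00297 and -0.416), so the numbers are not taken as pairs. With 7 arrays the intervals of Scd1, Me1 and Fasn allow changes in either direction.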

Other observations

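Among the other pathway genes 5 of 33 lay in the most variable 10% of all genes: Thrsp, Fads3, Insig2, Acss2 and Acacb, at percentiles 99.8, 98.6, 93.9, 92.6 and 90.6 of the within-group SD. Thrsp, a small protein that promotes lipogenesis in liver and fat, read 9.28, 8.39, 9.23 and 10.57 in penicillin mice, against 8.83, 9.39 and 10.01 in control mice. As for Fasn and Me1, penicillin replicate 4 was highest and penicillin replicate 2 lowest. Its difference was -0.043 ± 0.49 (SE, adjusted p = 0.977 in limma).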
